A study of Bos taurus with 30 samples.

Results

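Messenger RNA of CYP17A1, CYP19A1 and INSL3 was examined in the bovine corpus luteum. These 3 genes were taken by their platform gene symbol, with all of their probe sets, which made 6 of the 24016 probe sets tested: 1 for CYP17A1 (Entrez Gene 281739), 4 for CYP19A1 (Entrez Gene 281740) and 1 for INSL3 (Entrez Gene 281870). They stand beside 9155 genes that the array measured under a single symbol. CYP17A1 changed in the young gland, where its signal was 9.86 times higher 24 h after prostaglandin F2α than at 0 h. CYP19A1 changed in the mature gland, where its signal at 24 h was 6.96 times lower. INSL3 was 5.67 times higher in the untreated mature gland than in the untreated young one, and 4.03 times lower 24 h after treatment of the mature gland.

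CYP17A1 is the enzyme 17α-hydroxylase/17,20-lyase, which turns progestins into androgens. CYP19A1 is aromatase, which turns androgens into estrogens. In the bovine follicle the work is divided between layers: theca cells under luteinizing hormone make androgen through CYP17A1, and granulosa cells make estradiol through CYP19A1. INSL3 is a peptide hormone of the relaxin and insulin family, secreted by theca cells in the ovary and by Leydig cells in the testis, and it acts through the receptor RXFP2. After ovulation both follicular layers luteinize, and the corpus luteum they form is devoted to progesterone. Prostaglandin F2α (PGF2α) ends that function in a mature gland, while a gland of the first days of the cycle does not regress after it.

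The tissue came from 30 Angus crossbred heifers, and RNA of each animal's corpus luteum was hybridized to its own Affymetrix GeneChip Bovine Genome Array. There were 6 groups of 5 heifers. On day 11 of the estrous cycle, glands were collected at 0 h with saline as the control, and at 4 h and 24 h after PGF2α. On day 4 the same 3 times were used. Saline was given to the 0 h groups, so time after an injection and PGF2α itself cannot be told apart. Glands at 24 h were also a day older than those at 0 h, without a saline group of that age. The further day of gland age therefore cannot be told apart from PGF2α either. A response below means the difference from 0 h of the same day. Values are log2 RMA signals as the authors deposited them, so that 1 unit is a 2-fold change. The number of arrays limits the precision, and signals of different probe sets are not comparable as amounts of RNA.

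Array medians lay between 6.01 and 6.16, and 29 of the 30 arrays lay nearest the centre of their own group over all probe sets. The exception was day 4, 24 h, replicate 1, which lay nearest the day 4, 0 h centre. The 3′ minus 5′ difference of the actin control was 1.64 to 2.59. Day 11, 4 h, replicate 1 stood apart in the control for elongation factor 1α, at -1.40, where the other 29 arrays had -2.64 to -2.10, and it had the lowest GAPDH difference, 0.09, where the next array had 0.22. The labelled tissue carried its defining transcripts: the group means of STAR, CYP11A1 and HSD3B1, which take cholesterol to progesterone, were 11.39 to 13.71 in the 6 groups.

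A difference was called at an adjusted p under 0.05 in limma's moderated test, fitted to all 30 arrays, with Benjamini-Hochberg adjustment over all 24016 probe sets within each comparison. For every comparison the share of all probe sets called is given, since many probe sets differed in some of them.

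The plot of signals per heifer shows each gene in all 6 groups.

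**Figure D1:**
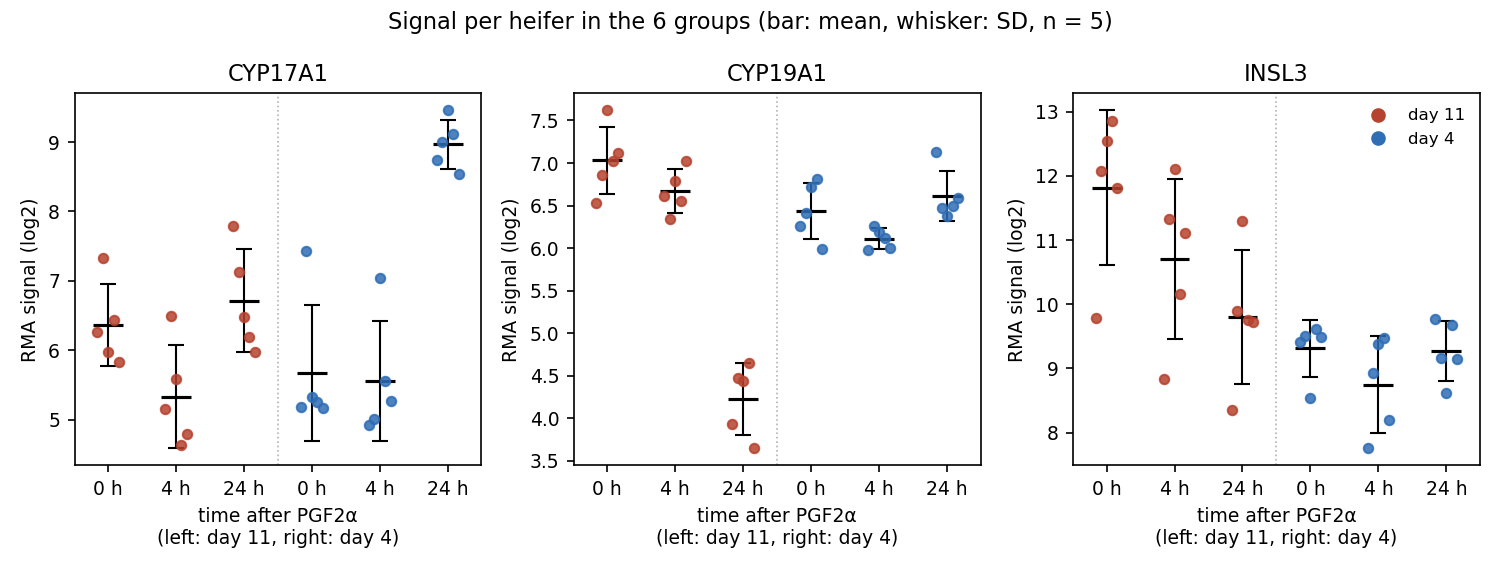
Log2 RMA signal (vertical axis) of CYP17A1, CYP19A1 and INSL3 in each heifer, by time after PGF2α (horizontal axis), with day 11 on the left and day 4 on the right of each panel. Points are heifers, bars are group means and whiskers are SD (n = 5). CYP17A1 is highest in day 4, 24 h glands (8.54 to 9.46), CYP19A1 is lowest in day 11, 24 h glands (3.65 to 4.65), and INSL3 is highest and widely spread in day 11, 0 h glands (9.78 to 12.86).

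CYP17A1 had its high signal in one group. In day 4 glands at 24 h it was 8.74, 9.0, 9.46, 9.12 and 8.54 in replicates 1 to 5, against 5.18, 7.43, 5.32, 5.25 and 5.17 at 0 h. All 5 glands at 24 h lay above all 5 at 0 h, and replicate 2 stood alone above the other 0 h values. The mean was 8.97 ± 0.35 at 24 h and 5.67 ± 0.98 at 0 h (SD, n = 5 each). CYP17A1 therefore rose by 3.30 ± 0.43 (SE) log2 units, a 9.86-fold difference (95% interval 2.41 to 4.19, limma, adjusted p = 0.00020). It was 1 of 6 probe sets of the 3 genes called in this comparison, in which 5.16% of all probe sets were called. No overlap of the 2 groups, as in CYP17A1, was seen in 4.39% of all probe sets. Ranked by the difference, it stood first among the 24016 probe sets.

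The rise came between 4 h and 24 h. Day 4 glands at 4 h had CYP17A1 signals of 4.93, 5.01, 7.04, 5.56 and 5.27, with a mean of 5.56 ± 0.86 (SD, n = 5). These values overlapped with those at 0 h, although replicates 1 and 2 lay below every 0 h gland, and there was again a single high gland, here replicate 3. The 4 h minus 0 h difference was -0.11 (95% interval -1.0 to 0.78, limma, adjusted p = 0.97), and none of the 6 probe sets was called where 4.24% of all were. At 24 h against 4 h on day 4, CYP17A1 was 10.6-fold higher (3.41 ± 0.43 log2 units, adjusted p = 3.8e-06), with 14.9% of all probe sets called, and it again stood first of 24016.

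In the mature gland, with all heifers in the fit, CYP17A1 showed no called change from 0 h. Day 11 signals were 6.26, 7.33, 5.97, 6.43 and 5.83 at 0 h, then 5.15, 6.49, 5.58, 4.63 and 4.80 at 4 h, and 7.78, 7.13, 6.48, 6.19 and 5.97 at 24 h. The 3 times overlapped, with the lowest values at 4 h. The means were 6.36 ± 0.59 at 0 h, 5.33 ± 0.74 at 4 h and 6.71 ± 0.74 at 24 h (SD, n = 5 each). At 24 h against 0 h the difference was 0.35 ± 0.43 (95% interval -0.54 to 1.24, adjusted p = 0.62), and at 4 h against 0 h it was -1.04 (95% interval -1.92 to -0.15, adjusted p = 0.10). Without day 11, 4 h, replicate 2 the 4 h difference was -1.33 and was called (adjusted p = 0.033). Set against 4 h, CYP17A1 was 2.61-fold higher at 24 h (1.38 log2 units, adjusted p = 0.020), in a comparison with 23.2% of all probe sets called and 15.4% without overlap. That call was lost when any 1 of 4 heifers was left out (day 11, 4 h, replicates 4 and 5, and day 11, 24 h, replicates 1 and 2), with adjusted p values of 0.050 to 0.075.

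The response of CYP17A1 at 24 h differed between the ages. The day 11 response minus the day 4 response was -2.95 ± 0.61 (SE) log2 units (95% interval -4.21 to -1.70, limma, adjusted p = 0.00063), with 22.2% of all probe sets called for this difference of responses. At 24 h itself, day 11 glands were 4.79-fold lower than day 4 glands (adjusted p = 0.00012), without overlap, which held for 25.5% of all probe sets. At 0 h the day 11 minus day 4 difference was 0.69 (95% interval -0.20 to 1.58, adjusted p = 0.24). That value depended on the 1 high day 4 gland: without day 4, 0 h, replicate 2 it was 1.13 (adjusted p = 0.028).

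The levels of CYP17A1, from high to low, ran from day 4 at 24 h (8.97) through day 11 at 24 h (6.71), day 11 at 0 h (6.36), day 4 at 0 h (5.67) and day 4 at 4 h (5.56) to day 11 at 4 h (5.33). Only the step below the highest group, 2.26 log2 units, was called. Each of the other neighbours differed by less than the test could call, with adjusted p values of 0.24 to 0.97. CYP17A1 varied widely between heifers of a group: its pooled SD was 0.74, above that of 99.2% of all probe sets, whose median was 0.198.

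CYP19A1 followed another course. On day 11 its main probe set gave 3.94, 4.48, 4.44, 4.65 and 3.65 at 24 h, against 6.53, 6.86, 7.62, 7.02 and 7.12 at 0 h. Every gland at 24 h lay below every gland at 0 h. The mean was 4.23 ± 0.42 at 24 h and 7.03 ± 0.40 at 0 h (SD, n = 5 each). CYP19A1 thus fell by 2.80 log2 units (SE 0.19), to a signal 6.96-fold lower (95% interval -3.19 to -2.41, limma, adjusted p = 8.8e-12). Of the 6 probe sets, this one and that of INSL3 were called, among 29.7% of all probe sets. It ranked as number 22 from the lowest difference of 24016, so it belonged to the strongest falls in a comparison with 15.4% of all probe sets called lower and 20.7% without overlap.

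At 4 h on day 11, CYP19A1 was 6.62, 6.34, 6.79, 6.56 and 7.03, within or just below the 0 h values, with a mean of 6.67 ± 0.26 (SD, n = 5). The 4 h minus 0 h difference was -0.36 ± 0.19 (adjusted p = 0.21), and none of the 6 probe sets was called where 18.4% of all were. The fall lay after 4 h: against the 4 h glands, those at 24 h were 5.41-fold lower (adjusted p = 2.5e-10), without overlap. In that comparison 23.2% of all probe sets were called and 15.4% did not overlap.

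In the day 4 gland, CYP19A1 had no called change. It was 6.26, 6.41, 6.71, 6.81 and 5.99 at 0 h, then 5.98, 6.26, 6.20, 6.12 and 6.00 at 4 h, and 7.12, 6.48, 6.37, 6.50 and 6.59 at 24 h. The 24 h and 0 h glands overlapped, while all 24 h glands lay above all 4 h glands. Means were 6.44 ± 0.33 at 0 h, 6.11 ± 0.12 at 4 h and 6.61 ± 0.30 at 24 h (SD, n = 5 each). The 24 h minus 0 h difference was 0.18 ± 0.19 (95% interval -0.22 to 0.57, adjusted p = 0.75), and the 24 h minus 4 h difference was 0.50 (adjusted p = 0.079), in a comparison where 12% of all probe sets did not overlap.

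The difference between ages in the 24 h response of CYP19A1 was -2.98 ± 0.27 (SE) log2 units (95% interval -3.53 to -2.42, limma, adjusted p = 7.3e-09), number 35 from the lowest of 24016. That of the 4 h response was -0.04 (adjusted p = 0.98), and none of the 6 probe sets was called for it where 1.1% of all were. At 24 h, day 11 glands were 5.21-fold lower than day 4 glands (adjusted p = 1.2e-10), in a comparison with 34.7% of all probe sets called. Before treatment the order was the other way: at 0 h CYP19A1 was 1.51-fold higher on day 11 than on day 4 (0.59 ± 0.19 log2 units, adjusted p = 0.017), with overlap between the ages and 33.8% of all probe sets called. At 4 h it was 0.56 log2 units higher on day 11 (adjusted p = 0.027), with no overlap (20.6% of all probe sets) and 31.4% of all probe sets called. Both of these calls rested on single glands. The 0 h call was lost without day 4, 0 h, replicate 5 (adjusted p = 0.062) or without day 11, 0 h, replicate 3 (adjusted p = 0.074). The 4 h call was lost without any 1 of day 4, 4 h, replicates 1 and 5 and day 11, 4 h, replicates 3 and 5 (adjusted p of 0.055 to 0.080).

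From high to low, CYP19A1 ran from day 11 at 0 h (7.03) through day 11 at 4 h (6.67), day 4 at 24 h (6.61), day 4 at 0 h (6.44) and day 4 at 4 h (6.11) to day 11 at 24 h (4.23). The last step, 1.88 log2 units, was called (as were 38.2% of all probe sets between these 2 groups), and the other neighbours were not (adjusted p of 0.21 to 0.87).

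The plot of differences sets these values of the 3 genes side by side with their intervals.

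**Figure D2:**
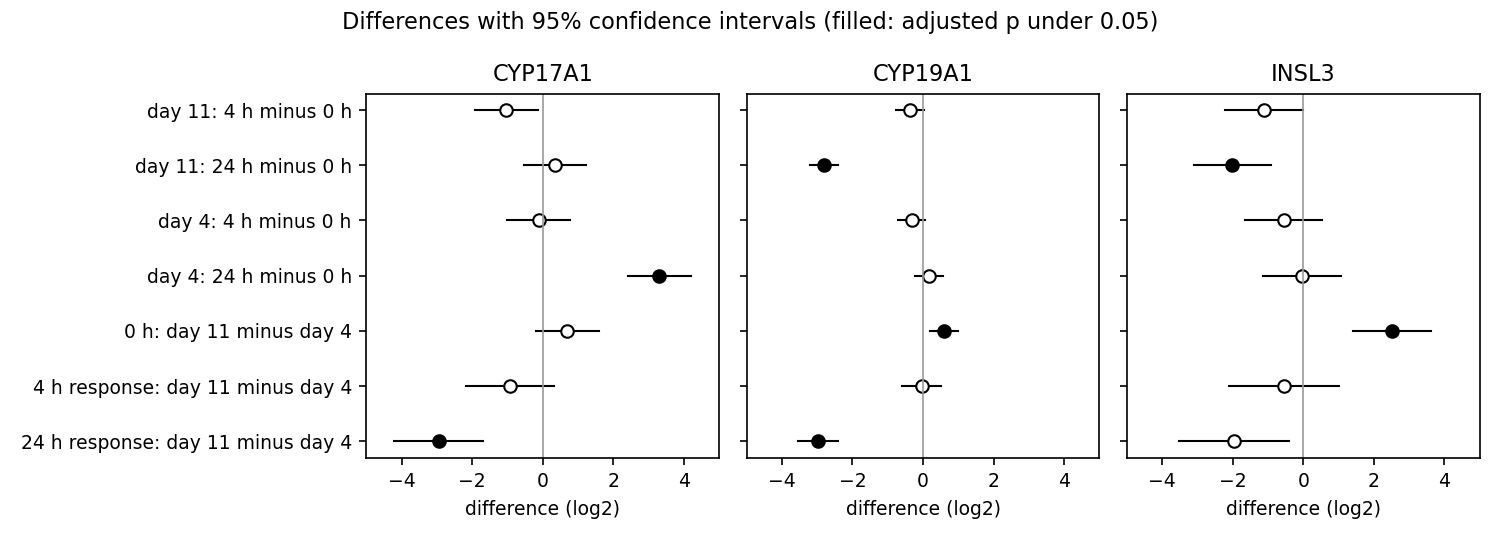
Differences in log2 signal (horizontal axis) of CYP17A1, CYP19A1 and INSL3 for 7 comparisons (vertical axis), with 95% confidence intervals; filled points have an adjusted p under 0.05. The filled points far from 0 are CYP17A1 at 24 h on day 4 (3.30), CYP19A1 at 24 h on day 11 (-2.80), INSL3 at 24 h on day 11 (-2.01) and between the ages at 0 h (2.50), and the 24 h response of CYP17A1 (-2.95) and CYP19A1 (-2.98) on day 11 minus day 4.

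The fall of CYP19A1 was seen by 1 of its 4 probe sets. The other 3 had low signals in all 30 glands: one had 3.23 to 4.14, another 2.21 to 2.81 and the last 2.10 to 2.82. By mean signal these stood above 18.6%, 2.96% and 1.18% of the probe sets of an array, whereas the main probe set stood above 51.4%. None of the 3 was called in any of the 17 comparisons run, which were the 15 pairs of groups and the 2 differences of responses, and their smallest adjusted p values were 0.30, 0.055 and 0.41. In those comparisons 1.1% to 41.9% of all probe sets were called. At 24 h on day 11 the main probe set came down to a mean of 4.23. As a rough guide to where low signals lie on these arrays, and not as a comparison of amounts, 67 probe sets were taken. They belong to 27 genes that the ovary is not known to express (hormones of the pituitary and pancreas, milk proteins, lens crystallins and the like). Their lower quartile was 3.49, their median 4.53 and their upper quartile 7.07, with some as high as 13.15. Every group mean of the main CYP19A1 probe set, 4.23 to 7.03, lay below that upper quartile, as did CYP17A1 in its 5 lower groups. No detection call was used here, so how much CYP19A1 transcript was left at 24 h is not measured by these values, and the true fold of its fall is uncertain. The same holds for CYP17A1 in its 5 lower groups, where single glands were as low as 4.63.

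**Figure D3:**
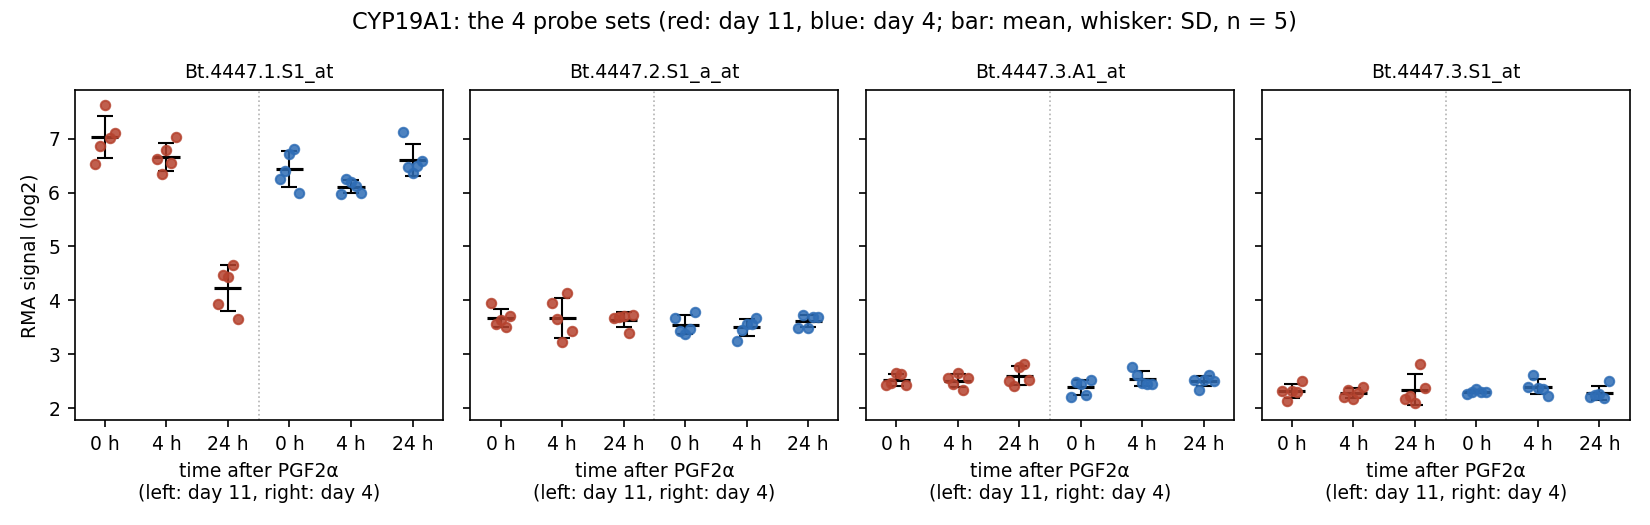
Log2 RMA signal (vertical axis) of the 4 CYP19A1 probe sets in each heifer, by time after PGF2α, with day 11 in red on the left and day 4 in blue on the right of each panel; bars are means and whiskers SD (n = 5). The main probe set (left panel) drops to 3.65 to 4.65 in day 11, 24 h glands, and the other 3 probe sets stay between 2.10 and 4.14 in all groups.

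INSL3 had its highest mean in the untreated mature gland, although the step down to day 11 at 4 h was not called. At 0 h it gave 9.78, 12.07, 12.54, 12.86 and 11.82 on day 11, against 9.41, 9.50, 8.54, 9.62 and 9.49 on day 4. Every day 11 gland lay above every day 4 gland, but day 11 replicate 1 lay close to the day 4 values. The mean was 11.82 ± 1.21 on day 11 and 9.31 ± 0.44 on day 4 (SD, n = 5 each), a 5.67-fold difference (2.50 ± 0.54 log2 units (SE), 95% interval 1.40 to 3.61, limma, adjusted p = 0.00052). The difference ranked as number 27 from the highest of 24016, where 16.2% of all probe sets were called higher and 23.4% did not overlap.

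After PGF2α, INSL3 in the day 11 gland was 8.84, 11.33, 12.10, 10.16 and 11.11 at 4 h and 8.36, 9.89, 11.30, 9.76 and 9.73 at 24 h. Both times overlapped with 0 h, and replicate 1 was the lowest of its group at all 3 times. The means were 10.71 ± 1.25 at 4 h and 9.81 ± 1.04 at 24 h (SD, n = 5 each). INSL3 fell by 2.01 log2 units at 24 h against 0 h (SE 0.54), to a signal 4.03-fold lower (95% interval -3.11 to -0.91, limma, adjusted p = 0.0046). It ranked as number 86 from the lowest of 24016. The differences of 4 h against 0 h (-1.11, adjusted p = 0.17) and of 24 h against 4 h (-0.90, adjusted p = 0.26) were not called. Without day 11, 0 h, replicate 1 the 4 h difference was -1.61 and passed the test (adjusted p = 0.025).

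The low replicates 1 on day 11 were also arrays of low weight. When limma estimated a weight per array from its scatter over all probe sets, those of day 11 replicate 1 were 0.544 at 0 h, 0.318 at 4 h and 0.581 at 24 h. These were 3 of the 4 lowest weights among the 30 arrays. Their part in the spread of INSL3 was not tested. With all first replicates left out, an alternative chosen after these values were seen, INSL3 was still called lower at 24 h on day 11 (-2.15, adjusted p = 0.00019).

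In the day 4 gland INSL3 was 9.41, 9.50, 8.54, 9.62 and 9.49 at 0 h, 7.75, 8.94, 9.38, 9.47 and 8.20 at 4 h, and 9.77, 9.16, 8.62, 9.68 and 9.15 at 24 h. The 3 times overlapped. The means were 9.31 ± 0.44, 8.75 ± 0.75 and 9.27 ± 0.47 at 0, 4 and 24 h (SD, n = 5 each). At 24 h against 0 h the difference was -0.04 (95% interval -1.14 to 1.07, adjusted p = 0.99), and at 4 h against 0 h it was -0.56 (adjusted p = 0.77). The 4 h interval was -1.66 to 0.54 log2 units.

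A difference between ages in the INSL3 response was not called. The day 11 minus day 4 difference of the 24 h response was -1.97 ± 0.76 (SE) log2 units (95% interval -3.53 to -0.41, adjusted p = 0.063). It was called in some of the alternatives given under the processing, and without day 11, 0 h, replicate 1 (-2.48, adjusted p = 0.0096). At 4 h INSL3 was 3.89-fold higher on day 11 than on day 4 (adjusted p = 0.0057, with overlap), and at 24 h the difference was 0.53 (adjusted p = 0.50).

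The INSL3 groups formed an order without steps. From high to low it was day 11 at 0 h (11.82), day 11 at 4 h (10.71), day 11 at 24 h (9.81), day 4 at 0 h (9.31), day 4 at 24 h (9.27) and day 4 at 4 h (8.75). No 2 neighbours differed beyond the test (adjusted p of 0.17 to 0.99), although groups further apart did. The spread between heifers was large: the pooled SD of 0.92 was above that of 99.7% of all probe sets. INSL3 also had a high signal in every group, on average above 90.3% of the probe sets of an array.

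The 3 genes were compared heifer by heifer after the group means had been removed, for the 3 pairs of genes, with two-sided permutation tests within groups (100000 permutations) and Benjamini-Hochberg adjustment over the 3 pairs. For CYP19A1 with INSL3, Pearson's r was 0.413 (permutation p = 0.051, adjusted 0.15) and Spearman's rho was 0.432 (p = 0.026, adjusted 0.079) over 30 heifers. Without the 2 arrays farthest from the median in CYP19A1, r was 0.413. Arrays extreme in INSL3 were not sought for this. For CYP17A1 with CYP19A1, r was -0.168 (p = 0.41, adjusted 0.61) and rho was -0.156 (p = 0.44, adjusted 0.44). It had r of -0.243 without the 2 arrays farthest from the median in CYP17A1. For CYP17A1 with INSL3, r was 0.104 (p = 0.61, adjusted 0.61) and rho was 0.247 (p = 0.23, adjusted 0.35), with r of 0.028 without the same 2 CYP17A1 arrays. No pair passed the adjustment.

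Around the 3 genes, the other enzymes of androgen and estrogen metabolism moved in both directions. Of 33 such genes listed, 21 were measured. At 24 h on day 11, 4 were higher and 4 lower, where 29.7% of all probe sets were called, with a median difference of -0.08 over the 21, against -0.01 over all probe sets. HSD17B11, a 17β-hydroxysteroid dehydrogenase that oxidizes androgens, rose by 1.35 ± 0.14 (SE) log2 units (adjusted p = 1.6e-08). CYB5A, cytochrome b5, which assists the lyase step of CYP17A1, fell by 1.04 (adjusted p = 5.1e-07). HSD11B2, which inactivates cortisol, rose by 0.78 (adjusted p = 0.0070). In day 4 glands at 24 h, 2 of the 21 were higher and none lower, where 5.16% of all probe sets were called (median 0.09, against 0.01): HSD17B11 rose by 0.54 (adjusted p = 0.021) and HSD17B10 by 0.43 (adjusted p = 0.013). CYB5A there differed by 0.10 and was not called (adjusted p = 0.80).

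The list of sex steroid and gonadotropin receptors had 8 genes measured. It also holds NCOA1, a coactivator, and SHBG, a steroid-binding protein, which are not receptors. Of the 8, 4 differed between the ages in their 24 h response (1 higher and 3 lower on day 11 minus day 4), where 22.2% of all probe sets did. SHBG was among those lower. LHCGR, the luteinizing hormone receptor, was higher by 1.15 ± 0.29 (SE) log2 units at 24 h on day 4 (adjusted p = 0.016), in the same glands as CYP17A1. On day 11 at 24 h LHCGR fell by 2.24 (adjusted p = 4.5e-07), and the day 11 minus day 4 difference of its responses was -3.39 (adjusted p = 4.0e-07). Of the 8 listed genes, 2 were higher (LHCGR and SHBG) and none lower at 24 h on day 4 (5.16% of all probe sets called). At 24 h on day 11, 1 was higher and 2 lower (29.7% called). The higher one was FSHR, the follicle-stimulating hormone receptor, by 1.04 (limma, adjusted p = 6.1e-07). The lower ones were LHCGR and PGRMC1 (-0.72, adjusted p = 4.3e-07). FSHR was also the one higher in the difference of 24 h responses, at 0.90 (adjusted p = 0.00082). ESR1 and ESR2, the estrogen receptors, had group means of 3.2 to 3.4 and 4.3 to 4.5, and neither was called in these 2 comparisons.

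The list of regulators of CYP17A1, CYP19A1 or INSL3 holds transcription factors and also secreted signals (BMP4 and BMP6). Of its 22 genes, 16 were measured. In their 24 h response 5 of the 16 differed between the ages, all lower on day 11 minus day 4, where 22.2% of all probe sets were called. In day 4 glands at 24 h, 1 was higher and none lower, where 5.16% of all probe sets were called (median 0.02, against 0.01 over all probe sets): NR5A1, steroidogenic factor 1, at 0.74 ± 0.18 (SE, adjusted p = 0.015). In day 11 glands at 24 h none was higher and 8 were lower, where 15.4% of all probe sets were called lower (median -0.51, against -0.01). These included NR5A2, liver receptor homolog 1, an activator of CYP19A1 in granulosa and luteal cells, which fell by 2.33 (adjusted p = 2.1e-07). NR0B1, also called DAX1, a repressor of NR5A1, fell by 1.95 (adjusted p = 3.4e-09), and CREM, a cAMP response factor, fell by 1.80 (adjusted p = 4.2e-06). At 4 h on day 11, where CYP19A1 was not called, 6 of the 16 were lower and none higher (median -0.21, against -0.02). There 18.4% of all probe sets were called, in either direction. An order in time between these genes and CYP19A1 was not tested.

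**Figure D4:**
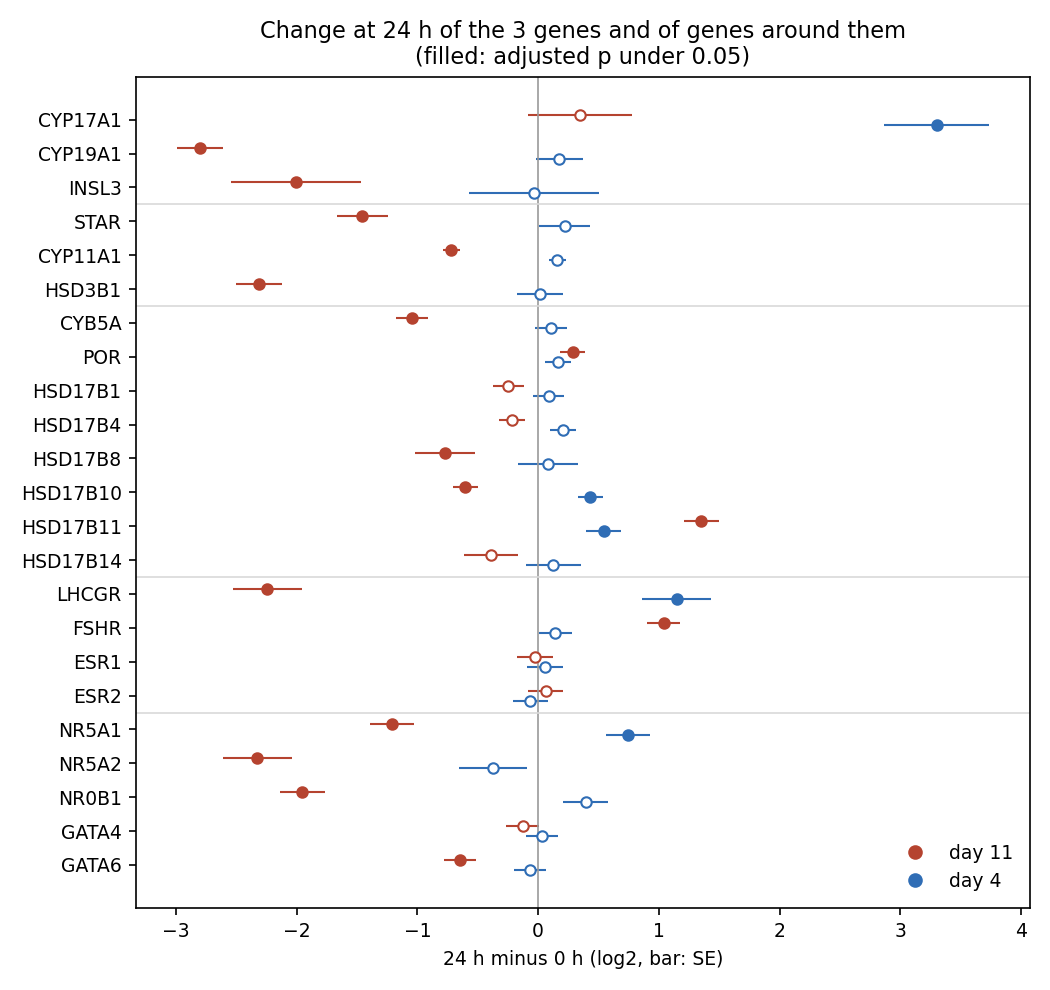
Difference in log2 signal at 24 h minus 0 h (horizontal axis, bars are SE) of the 3 genes and of progesterone enzymes, androgen and estrogen enzymes, receptors and regulators (vertical axis), on day 11 in red above day 4 in blue; filled points have an adjusted p under 0.05. The genes around the 3 were picked for their known roles after values were seen. CYP17A1 and LHCGR lie right of 0 on day 4, and CYP19A1, INSL3, LHCGR, NR5A1, NR5A2 and NR0B1 lie left of 0 on day 11.

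Progesterone synthesis is the main route of the gland. Of 8 genes measured, 3 were higher and 5 lower at 24 h on day 11, where 29.7% of all probe sets were called (median -0.52, against -0.01): HSD3B1, which makes progesterone, fell by 2.32 (adjusted p = 1.8e-10) and STAR, which carries cholesterol into mitochondria, fell by 1.46 (adjusted p = 3.6e-06). In day 4 glands at 24 h, 2 of the 8 were higher and none lower, where 5.16% of all probe sets were called (median 0.20, against 0.01). The other 9 relaxin family ligands and receptors listed, RXFP2 among them, had no probe set under their symbol alone and could not be analysed.

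Cell type markers moved in some of the same comparisons. In whole tissue, fewer cells of a type and less RNA per cell cannot be told apart. At 24 h on day 4, where CYP17A1 rose and 5.16% of all probe sets were called, 1 of 5 theca markers measured was higher. This was LHCGR, which is also on the luteal list and is counted again among the luteal markers below. The mean of the 5 theca markers per gland was 6.76 to 7.30 at 24 h and 6.56 to 7.0 at 0 h. In the same glands 1 of 9 granulosa markers was higher (CDH2, an adhesion protein, by 1.00), with list means of 7.72 to 8.13 at 24 h and 7.55 to 8.06 at 0 h, and 2 of 8 luteal markers were higher, with list means of 11.25 to 11.34 at 24 h and 10.96 to 11.18 at 0 h. No endothelial, fibroblast, macrophage, T and NK cell or blood cell marker was called there, and 1 of 8 mural cell markers was higher. PTCH1, a hedgehog receptor of theca, had group means of 3.13 to 3.35, among the low signals. Their part in the result was not tested.

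At 24 h on day 11, where CYP19A1 and INSL3 fell, 29.7% of all probe sets were called and 15.4% were called lower. There 7 of 8 luteal markers were lower (median -0.84, against -0.01), with list means of 10.40 to 10.90 at 24 h and 11.74 to 11.95 at 0 h. Of the 5 theca markers 1 was higher and 1 lower, the latter LHCGR, which is also on the luteal list. Theca list means were 6.71 to 7.26 at 24 h and 7.01 to 7.57 at 0 h. Granulosa markers were split, 3 of 9 higher and 2 lower, at 7.98 to 8.34 at 24 h and 7.85 to 8.0 at 0 h. Macrophage markers were higher for 5 of 8, with 9.78 to 10.55 at 24 h and 8.10 to 8.88 at 0 h. T and NK cell markers were higher for 7 of 9, with 5.83 to 6.45 at 24 h and 4.94 to 5.30 at 0 h, and blood cell markers for 4 of 7. The red cell genes HBB, HBA and ALAS2 were not among these 4 (limma, adjusted p of 0.59 to 0.83). Of the others, 5 of 10 endothelial markers were lower, 2 of 8 fibroblast markers higher, and 1 of 8 mural markers higher and 1 lower. Their part in the falls was not tested.

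Between the untreated ages, where INSL3 was higher on day 11, 33.8% of all probe sets were called and 16.2% were called higher, with a median difference of 0.03. There 1 of 5 theca markers was higher: LHCGR, by 1.22, which is also on the luteal list. Theca list means were 7.01 to 7.57 on day 11 and 6.56 to 7.0 on day 4. These did not overlap between the ages, nor did the list means of luteal, endothelial, macrophage, T and NK cell or fibroblast markers. Those of granulosa, mural and blood cell markers did overlap. Of single probe sets, 23.4% did not overlap, and no such share was computed for means of several genes. The theca ranges nearly touched, with a lowest mean of 7.007 on day 11 and a highest of 6.996 on day 4. Luteal markers were higher for 5 of 8 and lower for 1 (median difference 0.46), and granulosa markers were higher for 3 of 9 and lower for 3 (median 0.09). Endothelial markers were higher for 7 of 10 (median 0.52), macrophage markers for 5 of 8 (median 1.21) and T and NK cell markers for 5 of 9 (median 0.63). Fibroblast markers were lower for 5 of 8 and higher for 1 (median -0.41), mural markers were lower for 4 of 8 and higher for 2 (median -0.38), and blood cell markers were lower for 3 of 7 (median -0.29). Their part in the INSL3 difference was not tested.

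Genes with the most similar pattern were sought by Pearson's r over the 30 arrays, as a description, since the arrays share their 6 groups. For all the genes named here r was larger in size over the 6 group means than within groups. CYP17A1 was most like LRRC17 (r = 0.74), CUTA, ADH5, CCDC92 and NECAP2, all with r of 0.71 to 0.74, and least like BTG3 (r = -0.68), SELENOS and PNP. LRRC17, a secreted leucine-rich repeat protein, rose by 1.13 log2 units at 24 h on day 4 (adjusted p = 0.0075) but, unlike CYP17A1, also fell by 0.80 at 24 h on day 11 (adjusted p = 0.012). Within groups its r with CYP17A1 was 0.44.

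CYP19A1 had closer companions. GOT1, the cytosolic aspartate aminotransferase, had r of 0.93, and QPRT of NAD synthesis, ELOVL6, a fatty acid elongase, CCL25, a chemokine, and LRRC8E, a subunit of volume-regulated anion channels, had r of 0.91 to 0.92. Over the 6 group means r was 0.97 to 0.99 for these 5, while within groups it was -0.01 to 0.48. All 5 were lower at 24 h on day 11, by 2.24 log2 units for QPRT (adjusted p = 4.5e-14). The least alike were RAB31, GMIP and TMOD1, with r of -0.90. INSL3 was most like SH3BGRL2 (r = 0.81), ABLIM1, an actin-binding protein, IMMP1L, MARCHF2 and CAVIN2, a protein of caveolae, with within-group r of 0.30 to 0.57. Its lowest r, -0.81, was with GJA1, a gap junction protein.

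**Figure D5:**
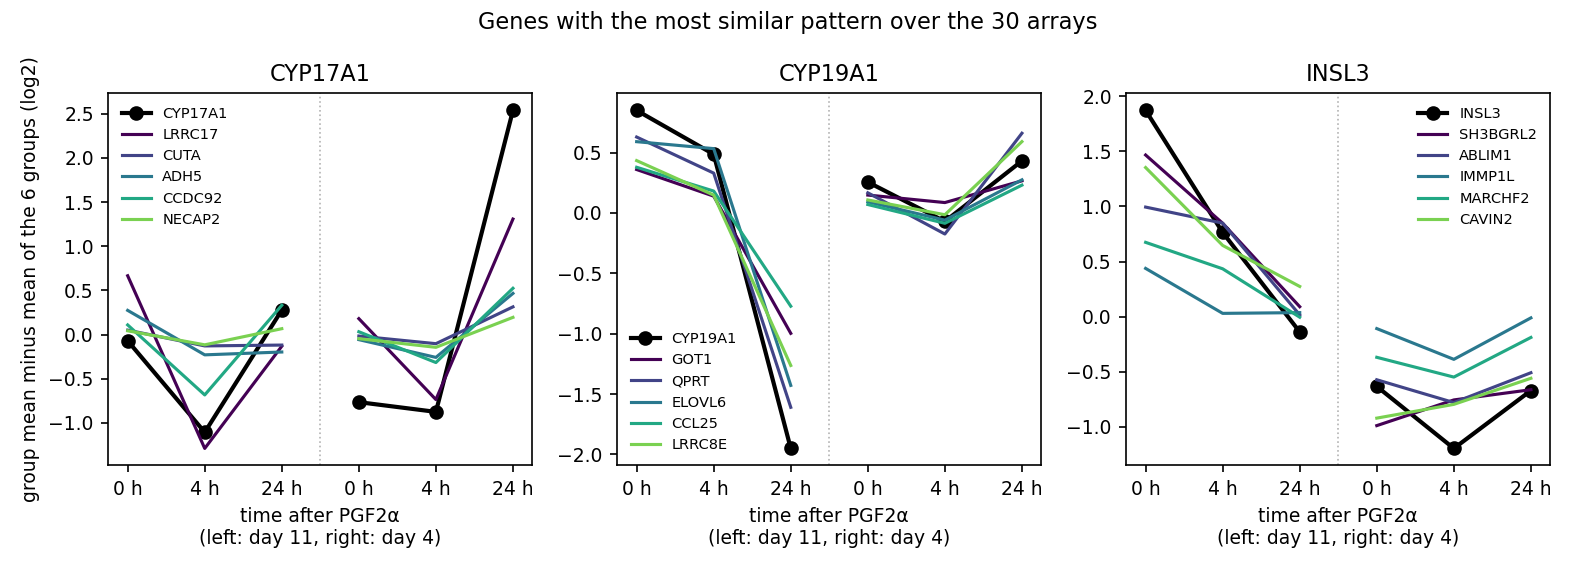
Group means minus the mean of the 6 groups (vertical axis, log2) by time after PGF2α, with day 11 on the left and day 4 on the right, for CYP17A1, CYP19A1 and INSL3 (black) and the 5 genes of each with the highest r over 30 arrays (coloured). CYP17A1 exceeds its companions at 24 h on day 4, the companions of CYP19A1 share its drop at 24 h on day 11, and those of INSL3 share its higher day 11 level.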

How the data were processed

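RNA of 30 corpora lutea was measured on Affymetrix GeneChip Bovine Genome Arrays. The authors deposited log2 signals per probe set, made with RMA per the submitters' processing notes; its version and which arrays were normalized together are not given in the sources used here. These values were used as deposited. Of 24128 probe sets, 112 controls were left out. The platform annotation gave 13292 of the 24016 tested exactly 1 gene symbol, and for a gene with several probe sets the one with the highest mean represented it (the main probe set). The model (limma 3.58.1, R 4.3.3) estimated 6 group means from all arrays without a block, moderated variances by empirical Bayes (24 residual degrees of freedom) and adjusted p values over all probe sets. Named genes were all probe sets of the 3 genes, up to 3 called members of a list with the largest difference in a comparison, any member of the enzyme and receptor lists by its level, and the 5 most and 3 least alike in pattern. PTCH1, the red cell genes of the blood cell list and the genes drawn in the pathway plot were picked after their values were seen. The genes and lists were chosen with earlier results of these data known. Correlations within groups used Python 3.11.15. The test was checked on simulated data, with noise independent between probe sets and arrays. For 24 h against 0 h on day 11, 90% of changes of 1 log2 unit were recovered and 5.1% of all calls were false. For the difference between ages of the 24 h response, these shares were 66% and 8.3%. Alternatives were other normalizations, a filter on dim probe sets, a variance trend, array weights, a replicate block, the arrays of a contrast alone, an exact permutation test, the mean of all probe sets, retained control probe sets and leaving out each array.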

Additional observations from a re-analysis of the deposited data

Results flagged for a closer look

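Among 36 groups of 5 values (6 probe sets in 6 groups), 5 held a value far from the other 4 by Dixon's criterion. Chance flags about 1 in 20 groups. CYP17A1 was 7.43 in day 4, 0 h, replicate 2, against 5.17 to 5.32 in the other 4 glands. INSL3 was 8.54 in day 4, 0 h, replicate 3, against 9.41 to 9.62. CYP19A1 was 7.12 in day 4, 24 h, replicate 1, against 6.37 to 6.59, in its main probe set. That array was also the one that lay nearest the centre of another group, day 4, 0 h. Without it, the CYP17A1 rise at 24 h on day 4 was 3.36 (limma, adjusted p = 7.5e-05). Of the dim CYP19A1 probe sets, the brightest was 3.39 in day 11, 24 h, replicate 4, against 3.68 to 3.72, and the dimmest was 2.50 in day 4, 24 h, replicate 5, against 2.18 to 2.26.

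The 24 h response differed between the ages for CYP17A1 (-2.95, day 11 minus day 4, adjusted p = 0.00063) and for CYP19A1 (-2.98, adjusted p = 7.3e-09), by limma's test of the difference itself. The CYP17A1 value came from a rise on day 4 and the CYP19A1 value from a fall on day 11.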

How the results depend on the processing

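Of 725 recomputed differences of the 3 genes, 686 kept their direction and their side of the threshold. The main calls held throughout: CYP17A1 at 24 h on day 4 (adjusted p of 1.0e-05 to 0.016), CYP19A1 at 24 h on day 11 (2.7e-12 to 3.0e-06), and INSL3 at 24 h on day 11 (0.00019 to 0.023) and at 0 h between the ages (4.6e-06 to 0.0028). With the mean of all 4 probe sets the CYP19A1 fall was -0.68. The labels do not say that replicate numbers mark anything shared, so the main fit did not treat the numbers as pairs. Correlations of deviations from the group means over all probe sets do not settle this. Of 75 same-numbered pairs 24 were over 0.1 (median 0.05), against 48 of 300 with different numbers (median -0.015). Of 30 arrays 19 were closest to their own number, more than an even spread over the 5 numbers would give. This is a hint of something shared from the data and not from the design. The replicate block changed 1 call, the difference between ages of the 24 h response of INSL3, to -1.97 with adjusted p = 0.029. That difference was also called with array weights (-2.04, 0.021), on the arrays of the contrast alone (-1.97, 0.044) and, added after the data were seen, with all first replicates left out (-2.02, 0.011). CYP17A1 at 24 h against 4 h on day 11 was lost with array weights (1.17, 0.074) and without first replicates (1.07, 0.14), and INSL3 at 4 h on day 11 was called without them (-1.15, 0.047). The 4 h call of CYP19A1 between the ages was lost with the mean of all probe sets (0.15, 0.12). CYP19A1 at 24 h against 4 h on day 4 passed on its arrays alone (0.50, adjusted p = 0.026) and in the exact permutation test (p = 0.0079, the smallest it can give) without adjustment, as did CYP17A1 at 4 h on day 11 in the permutation test (-1.04, p = 0.048). The difference between ages in the 4 h response of CYP19A1, not called, turned to 0.0020 with array medians subtracted. Leaving out each array gave -0.48 to 0.33 for CYP17A1 at 4 h on day 4, 0.45 to 1.13 and -0.52 to 0.14 for CYP17A1 between ages at 0 h and 4 h, -1.33 to -0.79 and 1.11 to 1.67 for CYP17A1 on day 11 at 4 h against 0 h and 24 h against 4 h, -0.16 to 0.11 for the difference between ages in the 4 h response of CYP19A1, 0.45 to 0.72 and 0.47 to 0.64 for CYP19A1 between ages at 0 h and 4 h, -0.23 to 0.13 for INSL3 at 24 h on day 4, -1.61 to -0.64 for INSL3 at 4 h on day 11 and -2.48 to -1.61 for the difference between ages in its 24 h response. Of the marker counts given, theca markers higher on day 11 at 0 h were 2 in place of 1 with quantile normalization and with the variance trend, and 1 fibroblast marker in place of 0 was called at 24 h on day 4 with the trend. The causes were not tested. Signals near background limit the size of the lowest values.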
